A study of Mus musculus with 6 samples.

Results

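The genes described here are 35 markers of T cells and natural killer (NK) cells, chosen by symbol from a list of receptor, signalling, killing and lineage genes. Of these, 34 had a probe set with that symbol among the 19919 genes of the table, and Lck was not analysed here. They were measured on Affymetrix arrays in total RNA of the stomach corpus, the acid-secreting body of the organ. The 3 control arrays came from untreated mice, and the 3 treated arrays came from mice that drank water holding dexamethasone, a synthetic glucocorticoid, at 50 mg/l for 3 days, with fresh solution on day 2. All were female Balb/c mice, wildtype and 8 to 12 weeks old, and the labels call the samples of a group biological replicates. The tissue was not sorted, so each value is a level in the whole corpus wall.

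T cells recognise antigen through a receptor whose signal is carried into the cell by the CD3 chains and the zeta chain. CD4 and CD8 are the co-receptors that divide helper from killer T cells. NK cells use germline-encoded receptors instead, and both killer types store perforin and granzymes in granules. In the stomach these cells lie scattered between the glands and in the lamina propria, and glucocorticoids are known to act on lymphocytes, including by inducing the death of immature T cells in the thymus.

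The promoters of 4 members are shown, chosen among those with an entry in the RefSeq promoter table. Klrd1, Il2rb and Icos, on which results given further on also turn, are named only. Of the 4, Cd3g had the largest difference of all members, its neighbour Cd3d in the same cluster differed by little, Il7r was lower in every treated array than in any control, and Nkg7 was higher. Each sequence runs 5′ to 3′ from 250 bases before the gene's start to 50 bases after it, in assembly GRCm38.p6 from RefSeq. Capitals mark E-boxes with the letters CAGNTG or, on the other strand, CANCTG, where N is any base. E-boxes are bound by helix-loop-helix proteins, a family that includes the E proteins needed for T cell development.
Cd3g (chr9:44980382-44980681, minus strand): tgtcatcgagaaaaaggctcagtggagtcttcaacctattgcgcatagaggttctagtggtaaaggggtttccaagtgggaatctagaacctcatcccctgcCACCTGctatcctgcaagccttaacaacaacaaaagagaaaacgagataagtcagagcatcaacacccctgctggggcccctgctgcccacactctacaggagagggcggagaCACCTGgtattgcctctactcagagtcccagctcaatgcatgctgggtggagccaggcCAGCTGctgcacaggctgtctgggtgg
Cd3d (chr9:44981536-44981835, plus strand): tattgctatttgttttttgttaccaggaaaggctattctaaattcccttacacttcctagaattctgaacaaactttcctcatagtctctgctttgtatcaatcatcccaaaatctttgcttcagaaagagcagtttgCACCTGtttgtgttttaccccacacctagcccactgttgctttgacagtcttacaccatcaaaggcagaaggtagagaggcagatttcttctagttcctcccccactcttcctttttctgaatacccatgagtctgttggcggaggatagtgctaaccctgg
Il7r (chr15:9529827-9530126, minus strand): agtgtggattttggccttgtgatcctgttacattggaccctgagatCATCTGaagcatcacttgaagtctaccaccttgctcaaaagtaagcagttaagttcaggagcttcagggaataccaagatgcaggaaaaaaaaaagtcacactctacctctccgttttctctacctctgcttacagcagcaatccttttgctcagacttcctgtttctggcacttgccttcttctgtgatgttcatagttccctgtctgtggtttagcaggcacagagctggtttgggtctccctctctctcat
Nkg7 (chr7:43436888-43437187, plus strand): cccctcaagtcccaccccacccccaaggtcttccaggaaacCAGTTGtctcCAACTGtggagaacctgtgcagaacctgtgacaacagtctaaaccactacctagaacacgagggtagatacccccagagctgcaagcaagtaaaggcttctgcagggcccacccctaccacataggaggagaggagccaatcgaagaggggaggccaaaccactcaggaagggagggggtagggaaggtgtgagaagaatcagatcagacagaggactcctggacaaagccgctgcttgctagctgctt
The starts of Cd3g and Cd3d are 1355 bases apart and point away from each other. The RefSeq promoter table held 22 of the 34 members. An E-box of these letters was found in the windows of 21 of the 22 genes (95.5%) and of 51.7% of the 15145 array genes with a window, and in 51.4% of all 32851 windows of this length. The half-site of the glucocorticoid receptor, TGTTCT on either strand, was found for 5 of the 22 (22.7%), against 17.9% of array genes and 19.0% of all windows. The ETS core GGAAGT, read on both strands, was found for 9 of the 22 (40.9%), against 27.9% of array genes and 23.8% of all windows. Matches of different motifs may overlap in position, and a match is a description of the letters only.

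None of the 34 listed T cell and NK cell genes passed the test under dexamethasone. In limma, with Benjamini-Hochberg adjustment over all 19919 genes, 0 of the 34 passed an adjusted p of 0.05, where 1.84% of all genes did. The smallest adjusted p of a member was 0.105, for Klrd1. At an unadjusted p under 0.05, 5 members were lower (14.7%, against 7.14% of all genes) and 2 were higher (5.88%, against 5.97%). The 5 were Cd3g, Icos, Il2rb, Il7r and Klrd1, and the 2 were Nkg7 and Tbx21. The 3 treated values lay entirely below the 3 control values for 9 members (26.5%, against 9.46% of all genes) and entirely above them for 1 (2.94%, against 8.84%). The log2 difference, dexamethasone minus control, was negative for 21 members and positive for 13. Its median was -0.041 over the members and 0.0023 over all genes. Groups of 3 against 3 cannot give an exact permutation p below 0.1, so none is given for single genes.

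**Figure D1:**
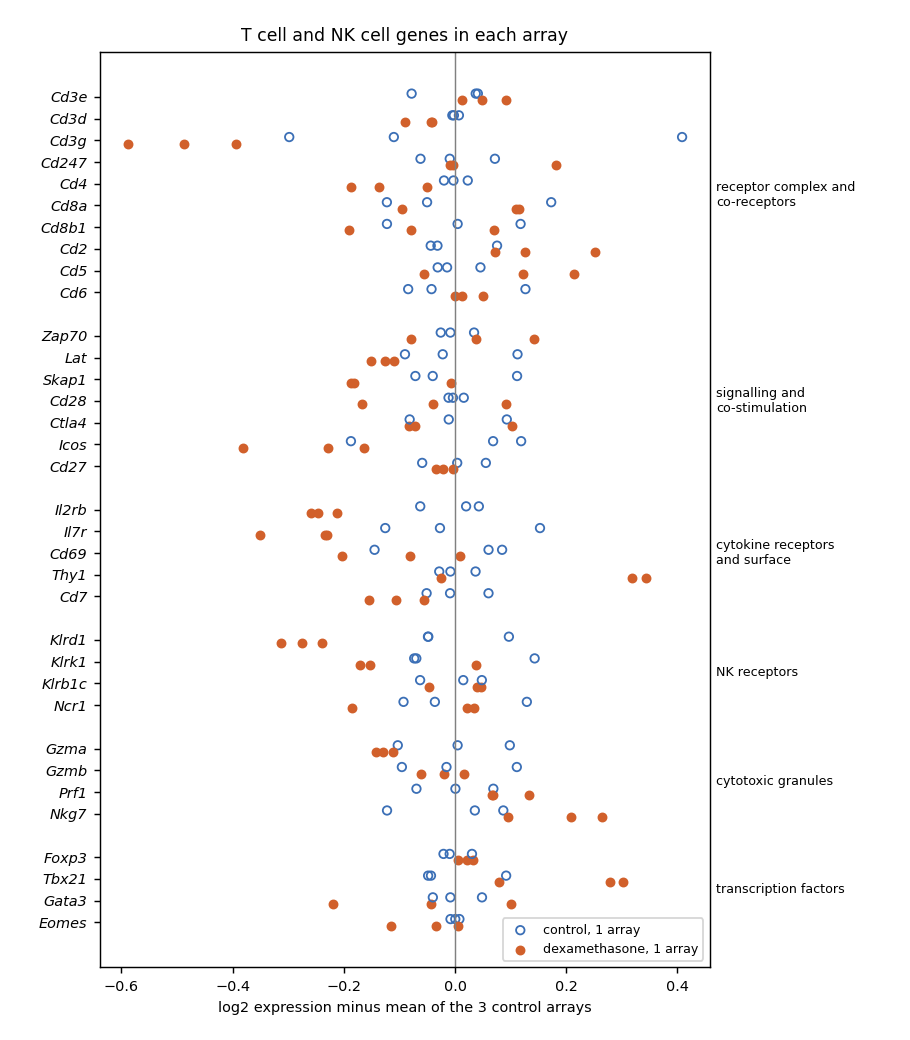
Each row is 1 of the 34 T cell and NK cell genes, ordered by role, and each point is 1 array, placed on the x axis by its log2 expression minus the mean of the 3 control arrays (open circles, control; filled circles, dexamethasone). Of the 102 treated points, 78 lie within 0.2 of the control mean. The treated points of 9 genes lie to the left of all their controls: Cd3d, Cd3g, Cd4, Lat, Il2rb, Il7r, Cd7, Klrd1 and Gzma.

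The measured differences were small. For each of the 34 members the 95% interval of the difference lay within a 2-fold change in either direction, and for 33 of them within 1.5-fold, with Cd3g the exception. The median standard error (SE) was 0.073 on the log2 scale. The median absolute difference was 0.090 over the members and 0.074 over all genes. These intervals are for single genes and are not adjusted for the number of members.

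The array signal of these genes was low. Only 2 members, Cd3e and Thy1, passed a filter that removes the 40% of genes with the lowest mean. Among the 7968 genes that the filter removes, 0.527% passed the adjusted threshold, 3.64% were lower and 4.17% higher at an unadjusted p under 0.05, and 5.94% had treated values entirely below the controls. As a guide to background, 1242 receptor genes of smell and pheromone sensing, which are not expected in stomach, had means up to 7.28 at their 95th percentile. The median of their means was 6.21, and 67.8% of all genes stood above 7.28. Of the members, 28 had a mean at or below 7.28, and Cd3e, Cd247, Cd5, Thy1, Prf1 and Foxp3 stood above it. Probe sets differ in binding, so this does not say whether any 1 gene was expressed, and a difference in a dim probe set understates a difference in RNA. In whole tissue, fewer cells of a type and less RNA per cell cannot be told apart.

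Of the 10 genes of the T cell receptor complex, its co-receptors and adhesion partners, 0 rose, 0 fell and 10 did not pass. Cd3e, which encodes the CD3 epsilon chain, read 7.70, 7.59 and 7.71 on the log2 scale in control replicates 1 to 3 and 7.76, 7.68 and 7.71 in dexamethasone replicates 1 to 3. The groups overlapped, and the difference was 0.05 (SE 0.062, limma adjusted p = 0.804, n = 3 per group). Its interval runs from -0.095 to 0.196, whose lower end is a 1.07-fold lower level. Cd3d, the CD3 delta chain, read 6.66, 6.66 and 6.67 in controls and 6.57, 6.62 and 6.62 under dexamethasone. All treated values lay below all controls, by a difference of only -0.058 (SE 0.054, adjusted p = 0.727), and Cd3d had the smallest spread between replicates of any member.

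Cd3g, the CD3 gamma chain, had the largest difference of the CD3 chains and the largest spread between replicates of any member. Its control values were 7.55, 6.85 and 7.03 and its treated values 6.75, 6.66 and 6.56. The groups did not overlap, but control replicate 1 was far above the other controls. The mean was 1.40-fold lower (log2 difference -0.49, SE 0.167, unadjusted p = 0.0199, limma adjusted p = 0.255), with an interval from -0.88 to -0.10. Without control replicate 1 the difference was -0.29 (adjusted p = 0.179). Cd247, the zeta chain, differed by 0.056 (adjusted p = 0.820). The gamma, delta, epsilon and zeta chains are assembled into 1 receptor, and the difference between their changes was not tested.

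The co-receptors did not separate the groups in a common direction. Cd4, which in mice is also found on some myeloid cells, read 7.14, 7.16 and 7.18 in controls and 7.11, 7.03 and 6.97 under dexamethasone. The treated values were all lower, with a difference of -0.12 (SE 0.061, adjusted p = 0.453). Cd8a read 7.26, 7.04 and 6.97 in controls and 7.21, 7.20 and 6.996 in treated arrays, with overlap and a difference of 0.04 (adjusted p = 0.907). Cd8b1, whose product pairs with that of Cd8a on conventional killer T cells, read 7.39, 7.28 and 7.15 in controls and 7.20, 7.35 and 7.08 in treated arrays. Its groups overlapped too, with a difference of -0.066 (adjusted p = 0.827). Cd2 (adhesion), Cd5 and Cd6 (inhibitors of receptor signalling) had positive differences of 0.15, 0.093 and 0.020, with adjusted p of 0.435, 0.698 and 0.945.

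Among 7 genes of receptor signalling and co-stimulation, 0 rose, 0 fell and 7 did not pass. Icos, an inducible co-stimulatory receptor that is also present on innate lymphoid cells, read 6.85, 7.10 and 7.16 in controls and 6.87, 6.81 and 6.66 under dexamethasone. Control replicate 1 lay inside the treated range, and the other controls lay above it. The difference was -0.26 (SE 0.098, unadjusted p = 0.0319, limma adjusted p = 0.313). Lat, the membrane adaptor that gathers the signalling complex, had non-overlapping groups at a difference of -0.13 (adjusted p = 0.493). Skap1, an adaptor for integrin activation, also stood at -0.13 (adjusted p = 0.578), with overlap. The kinase gene Zap70, the co-stimulators Cd28 and Cd27 and the inhibitory receptor Ctla4 lay between -0.039 and 0.034, with adjusted p from 0.889 to 0.958.

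Among the members, cytokine receptors held the smallest p-values outside the NK receptor genes. In this group of 5, with the surface proteins Cd69, Thy1 and Cd7, 0 rose, 0 fell and 5 did not pass. Il2rb, the beta chain shared by the receptors for interleukins 2 and 15 and carried by NK cells and memory T cells, read 7.06, 6.96 and 7.04 in controls. Under dexamethasone it read 6.81, 6.77 and 6.76. Every treated array was below every control by at least 0.15, with a difference of -0.24 (SE 0.059, unadjusted p = 0.00395, limma adjusted p = 0.115), or 1.18-fold. Il7r, the interleukin 7 receptor chain that naive and memory T cells need to survive, read 6.84, 6.56 and 6.66 in controls and 6.46, 6.46 and 6.34 in treated arrays. The groups did not overlap, and the difference was -0.27 (SE 0.084, unadjusted p = 0.0131, limma adjusted p = 0.209). Glucocorticoids are known to raise Il7r in isolated T cells.

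Thy1, a surface protein of T cells that neurons and fibroblasts also carry, had a positive difference. It read 8.27, 8.31 and 8.25 in controls and 8.59, 8.62 and 8.25 under dexamethasone. Dexamethasone replicates 1 and 2 were high, while replicate 3 lay within the controls (difference 0.21, SE 0.102, limma adjusted p = 0.446). The arrays with high Thy1 also had high squamous and smooth muscle signals, given further on. Control replicate 2 had a high squamous signal too (mean 9.86), with Thy1 at 8.31. Thy1 differed by 0.29 among the arrays of high squamous signal and by -0.0078 among those of low. Each of these comparisons has only 1 array on 1 side, and neither was tested. With each array's mean squamous signal as a covariate, the Thy1 difference was 0.129 (adjusted p = 0.529). The part of smooth muscle was not tested. Cd69, an early activation marker, differed by -0.091 and Cd7 by -0.11 (adjusted p = 0.733 and 0.546). The groups of Cd7 did not overlap, though the nearest values were only 0.0042 apart.

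**Figure D2:**
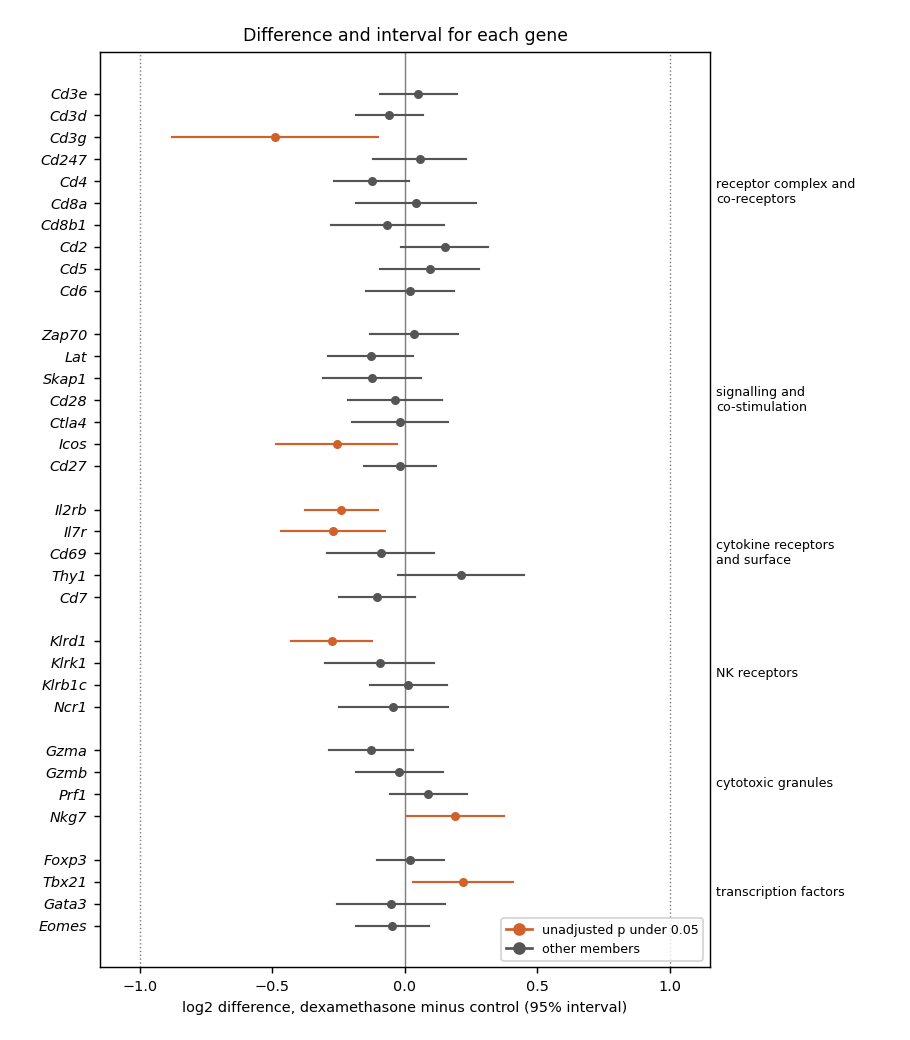
The x axis gives the log2 difference, dexamethasone minus control, of each of the 34 genes with its 95% interval from limma, and dotted lines mark a 2-fold change. Every interval lies inside the dotted lines, and the 7 genes with an unadjusted p under 0.05 are coloured, 5 to the left of 0 and 2 to the right.

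Of 4 NK cell receptor genes, 0 rose, 0 fell and 4 did not pass. Klrd1 encodes CD94, which pairs with NKG2 proteins to recognise a non-classical histocompatibility molecule. It read 6.35, 6.49 and 6.35 in controls and 6.12, 6.16 and 6.08 under dexamethasone. All treated values lay below all controls, with a difference of -0.28 (SE 0.065, unadjusted p = 0.00329, limma adjusted p = 0.105), or 1.21-fold. Ncr1, which encodes NKp46 and marks NK cells and related innate lymphoid cells most closely, read 6.25, 6.47 and 6.31 in controls. Its treated values were 6.38, 6.37 and 6.16, which overlap the controls (difference -0.04, adjusted p = 0.894). Klrk1 (the activating receptor NKG2D) stood at -0.096 and Klrb1c at 0.013 (adjusted p = 0.724 and 0.960). Klrb1c encodes an NK receptor whose commonly stained epitope is absent from Balb/c mice.

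The cytotoxic granule genes gave values on both sides of 0. Of the 4, 0 rose, 0 fell and 4 did not pass. Nkg7, a granule membrane protein, read 6.80, 6.64 and 6.85 in controls and 7.03, 6.97 and 6.86 under dexamethasone. Nkg7 was the member whose treated values all exceeded its controls, though the nearest values were only 0.01 apart (difference 0.19, SE 0.079, unadjusted p = 0.0446, limma adjusted p = 0.366). Gzma (granzyme A) had non-overlapping groups in the opposite direction, at -0.13 (adjusted p = 0.495). Gzmb (granzyme B) stood at -0.021 and Prf1, the pore-forming perforin, at 0.089 (adjusted p = 0.942 and 0.625).

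Of 4 lineage transcription factors, 0 rose, 0 fell and 4 did not pass. Tbx21 encodes T-bet, the factor of type 1 helper T cells and NK cells. It read 6.51, 6.50 and 6.64 in controls and 6.85, 6.63 and 6.83 under dexamethasone, so that dexamethasone replicate 2 lay just inside the control range (difference 0.22, SE 0.081, unadjusted p = 0.0275, limma adjusted p = 0.293). Foxp3 encodes the factor that defines regulatory T cells. Its controls read 7.54, 7.53 and 7.58 and its treated values 7.57, 7.58 and 7.56, a difference of 0.020 (adjusted p = 0.928) with an interval from -0.107 to 0.147. Eomes, a factor related to T-bet, and Gata3, the factor of type 2 helper T cells that squamous epithelium also expresses, stood at -0.048 and -0.054 (adjusted p = 0.802 and 0.859).

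Other genes of T cells and killer cells were set beside the members. Of 51 measured genes of T cell signalling, trafficking and control, 0 rose, 3 fell and 48 did not pass (5.88% called lower, against 1.04% of all genes). The 3 were Ptprc, Cd52 and Gimap4. Ptprc encodes CD45, the phosphatase carried by all white blood cells, and read 8.06, 7.85 and 7.76 in controls and 7.30, 7.13 and 7.35 under dexamethasone. It fell 1.55-fold (log2 difference -0.63, SE 0.096, limma adjusted p = 0.0228). Gimap4, a GTPase of lymphocytes, read 7.80, 7.99 and 8.04 in controls against 7.37, 7.18 and 7.30, and fell 1.58-fold (log2 difference -0.66, SE 0.085, limma adjusted p = 0.0122). Cd52, a small surface glycoprotein of lymphocytes and some other white cells, read 7.09, 6.89 and 6.98 in controls against 6.67, 6.54 and 6.55. It fell 1.32-fold (log2 difference -0.40, SE 0.075, limma adjusted p = 0.0455).

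In each of these 3 genes all treated arrays lay below all controls. With control replicate 2 left out, Ptprc no longer passed (limma adjusted p = 0.0618), nor did it when control replicate 3 (0.0697), dexamethasone replicate 1 (0.0956) or dexamethasone replicate 2 (0.114) was left out. For Gimap4 the arrays in question were control replicate 3 (0.0791) and dexamethasone replicate 2 (0.0741). Cd52 missed the threshold whichever array was left out (0.0637 to 0.216), with the replicate block (0.0666) and with squamous signal as a covariate (0.0584). Counting these 3, 7 of the 51 were lower at an unadjusted p under 0.05 (13.7%, against 7.14% of all genes). The other 4 were lower at an unadjusted p under 0.05 without passing: Ikzf1, the lymphoid factor Ikaros (-0.26), Gimap3 (-0.23), Gimap7 (-0.18) and the phosphatase gene Ptpn22 (-0.16), with limma adjusted p from 0.171 to 0.365. None of the 51 was higher at that level.

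**Figure D3:**
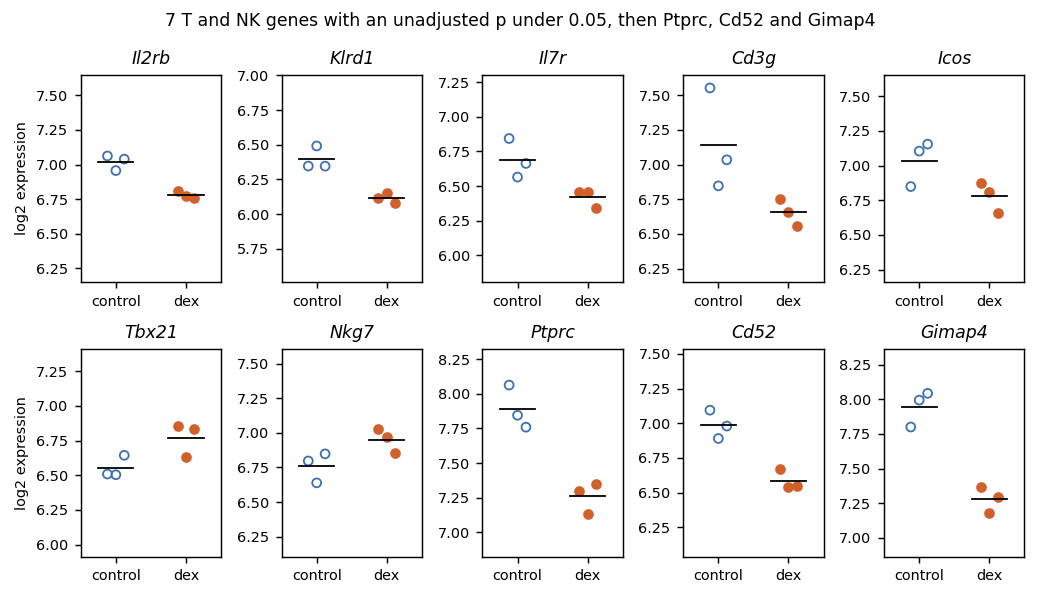
Log2 expression of 10 genes, with 1 point per array, a bar at the mean of 3 arrays and an equal height of scale in every panel (open, control; filled, dexamethasone). Ptprc and Gimap4 show the largest separation, at log2 differences of -0.63 and -0.66, while Tbx21 and Nkg7 lie higher in treated arrays.

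Of 36 further NK and killer cell genes, 0 passed in limma, with 3 lower (8.33%, against 7.14% of all genes) and 0 higher at an unadjusted p under 0.05. The 3 were Tnfsf10, the death ligand TRAIL that many cell types make (-0.62, adjusted p = 0.126), Klrb1f (-0.30, adjusted p = 0.172) and Klri1 (-0.15, adjusted p = 0.355). The Klra and Klrc families share long stretches of sequence, so the split of signal among their members is uncertain. Of 11 cytokines and receptors that feed these cells, 0 passed, with Il12b higher (0.23, adjusted p = 0.297) and Il18 lower (-0.22, adjusted p = 0.375) at an unadjusted p under 0.05. Of 7 measured genes of type 2 innate lymphoid cells, 0 passed, with Icosl, the ligand of ICOS, lower at an unadjusted p under 0.05 (-0.19, limma adjusted p = 0.381).

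The arrays differed in the signal of other tissues, in part along the groups and in part across them. Mean signal over 20 squamous epithelium genes, markers of the neighbouring forestomach, was 9.86 in control replicate 2 and 9.99 and 10.1 in dexamethasone replicates 1 and 2. It was 8.39 and 8.53 in control replicates 1 and 3 and 8.47 in dexamethasone replicate 3. Of the 20 genes, 1 passed, Krt6a (log2 difference 0.61, limma adjusted p = 0.0362). The list leaned toward the treated arrays, with 18 positive differences and 2 negative, where 50.9% of all genes were positive. Its median difference was 0.485, against 0.0023 over all genes. At an unadjusted p under 0.05 in limma, 4 of the 20 genes were higher and 0 lower, where 5.97% of all genes were higher. Squamous signal was therefore not balanced between the groups. With the squamous mean as a covariate, 6 members in place of 7 had an unadjusted p under 0.05, with no share over all genes taken. Nkg7 was the one that no longer did (0.19, unadjusted p = 0.0588), and Klrd1 had the smallest adjusted p of the 7 (-0.31, limma adjusted p = 0.0520). Within the 3 arrays of high and then the 3 of low squamous signal, with no test, Il2rb differed by -0.17 and -0.29, Klrd1 by -0.35 and -0.26, and Il7r by -0.11 and -0.41. Cd3g differed by -0.14 and -0.74, Icos by -0.27 and -0.35, Tbx21 by 0.24 and 0.25, and Nkg7 by 0.36 and 0.034. Each of these comparisons has only 1 array on 1 side, control replicate 2 among the high arrays and dexamethasone replicate 3 among the low. Groups that do not overlap fix the sign of such differences, which applies to all of these genes but Icos and Tbx21. All 7 genes were picked by p on the same arrays. The values are a description, and the part of squamous signal cannot be read from them. Smooth muscle genes had a mean of 10.997 to 11.25 in controls and 11.4 to 11.8 in treated arrays, with 2 of 8 past the threshold, both higher (Actg2 at 0.81 and Cnn1 at 0.73). The treatment check gene Fkbp5, a glucocorticoid receptor co-chaperone, rose 3.68-fold (log2 difference 1.88, SE 0.255, limma adjusted p = 0.0151). Of the other 7 glucocorticoid check genes, Nr3c2, the mineralocorticoid receptor, fell (-0.58, adjusted p = 0.0055) and 6 did not pass, among them Zbtb16 (0.75, adjusted p = 0.120), Tsc22d3 (0.33, adjusted p = 0.591) and Per1 (0.22, adjusted p = 0.770).

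Averaged over the 34 members relative to each gene's mean of 6 arrays, the controls stood at 0.045, -0.0050 and 0.027. The treated arrays stood at 0.022, -0.0048 and -0.084, so that only dexamethasone replicate 3 lay below the controls. B and plasma cell genes stood at 0.143, 0.026 and 0.275 in controls and at -0.144, -0.152 and -0.149 in treated arrays, without overlap. In that list 2 of 11 genes passed, both lower (18.2%, against 1.04% of all genes). Both encode immunoglobulin heavy chains, Igha (-1.56, limma adjusted p = 0.0263) and Ighm (-1.19, adjusted p = 0.0362). The median difference of the 11 was -0.0079, and 4 of them had a positive difference. The myeloid list of 18 genes gave 1 higher call, Cd163, a scavenger receptor, at 1.14 (5.56%, against 0.798% of all genes). Its 1 lower call was the integrin gene Itgax at -0.42 (5.56%, against 1.04%). The list levels were 7.46 to 7.51 in controls and 7.50 to 7.54 under dexamethasone. The part of these other cell types in the values of Ptprc, Cd52 and Gimap4 was not tested.

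**Figure D4:**
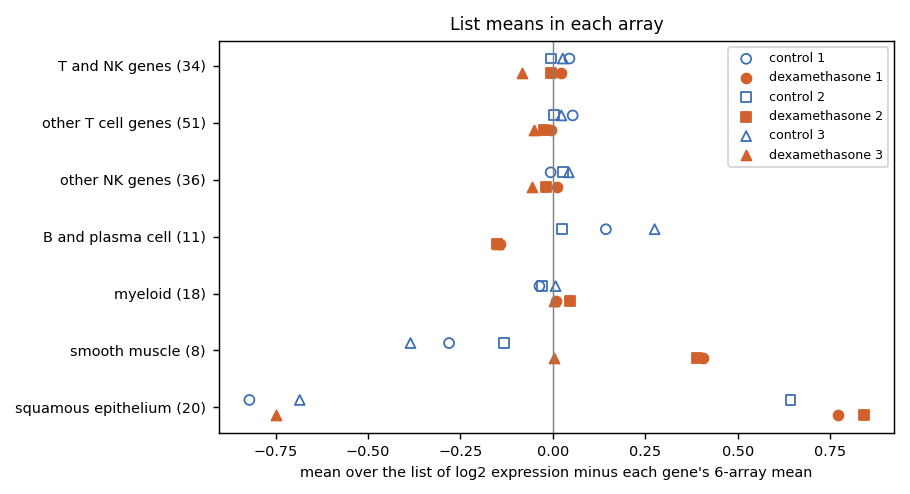
For each of 7 gene lists the x axis gives the mean over the list of log2 expression minus each gene's mean of 6 arrays, with 1 point per array. The T and NK genes lie between -0.084 and 0.045 in all arrays, the mean of the B and plasma cell genes, which holds the large differences of Igha and Ighm, separates the groups while the list's median difference is -0.0079, and the squamous genes divide the arrays across both groups.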

How the data were processed

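The deposited table holds 1 log2 value per probe set and array for 20985 probe sets. The authors made these log2 values with RMA (robust multi-array average), and the submitters' processing notes also name R 2.9 and limma without roles. RMA usually includes quantile normalization, so a shift of the whole array would not be seen, and it compresses differences of dim probe sets. The chip definition is not given in the sources used here. GEO's platform annotation gave 1 symbol for 19921 probe sets and several for 0, and 1064 were not listed and stay unnamed. Where 2 probe sets shared a symbol, the one with the higher mean was kept, which left 19919 genes.

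The 2 groups were set against each other by lmFit and eBayes of limma 3.58.1 (R 4.3.3, default prior, two-sided, no filter), with adjustment over all 19919 genes and a threshold of 0.05. Every adjusted p is limma's. The scripts were tested on simulated data. The members and gene lists were chosen with earlier results of these data known, so their counts are descriptions. Every member is accounted for. All values are printed for members with an unadjusted p under 0.05 and for Cd3e, Cd3d, Cd4, Cd8a, Cd8b1, Ncr1 and Foxp3, with Thy1 added after its values were seen. From the other T cell, NK cell, cytokine and innate lymphoid lists, genes past the threshold and up to 6 of smallest p are named. Lists of other cell types are given by counts and levels, with the genes past the threshold named after their values were seen. The alternatives were a replicate block, median centring, quantile normalization, a filter on dim genes, a trend and robust prior, array weights, all probe sets, a minimum log2 change, a squamous covariate and each array left out. The number of arrays, 3 per group, limits precision.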

Additional observations from a re-analysis of the deposited data

How the results depend on the processing

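The count of 0 members past the threshold held under every alternative tried except array weights. With weights from 0.447 (control replicate 1) to 2.51 (control replicate 3), 3 of 34 members passed, each lower. They were Il2rb (adjusted p = 0.0214), Klrd1 (0.0360) and Icos (0.0407). Over all genes 1776 of 19919 passed, in place of 367, so the share of members was no higher than that of all genes. At an unadjusted p under 0.05 there were 11 members in place of 7, with no share over all genes taken. Over their alternatives the limma adjusted p ranged from 0.0214 to 0.384 for Il2rb, from 0.0360 to 0.289 for Klrd1, from 0.0407 to 0.677 for Icos, from 0.0641 to 0.577 for Cd3g and from 0.0639 to 0.467 for Il7r. With the dimmest 40% of genes left out, 2 members remained, so the counts with an unadjusted p under 0.05 and with groups that do not overlap were both 0 and the median was 0.131. The members' median ranged from -0.057 to 0.0023 over the arrays left out in turn, and it was 0.0023 without dexamethasone replicate 3. Leaving out arrays gave 88 to 543 genes over the whole table and 0 members past the threshold. Members with an unadjusted p under 0.05 numbered 5 to 7 (14.7% to 20.6%, against 8.55% to 16.7% of all genes). Those with groups that do not overlap numbered 10 to 14 (29.4% to 41.2%, against 23.6% to 34.9% of all genes in these smaller comparisons). Of the members' values, 24 changed sign under an alternative, each for a member with an unadjusted p of 0.05 or more. With the replicate block the count over all genes was 220, and 5 members had an unadjusted p under 0.05, with no share over all genes taken. Deviations from the group means had correlations across genes of -0.28, 0.35 and 0.23 between samples of the same number. Between samples of unlike number they ranged from -0.49 to 0.38, so the numbers were not taken as pairs. The cause of these shifts was not tested. Most members lie at or below the 95th percentile of signal of receptor genes not expected in stomach, which limits what these arrays can show of them.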
